A study of Danio rerio with 15 samples.

Results

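The 100 genes described here had a transcript level at the zebrafish fin amputation plane that was higher at each of 4 later times than at 0 days post amputation (dpa). They were chosen by these measured values. For every gene with a mean scaled TPM of at least 5, the group means of log2(scaled TPM + 1) were taken, the 0 dpa mean was subtracted from the lowest of the 4, 7, 14 and 21 dpa means, and the 100 genes with the largest result, called the score below, were kept. TPM is a transcript abundance that divides a gene's reads by its length and by its library's total. Scaled TPM is that value divided by 1 factor per library, set by the median ratio over genes. Levels below are in scaled TPM unless another scale is named, and day 4 stands for 4 dpa. The 100 members came from 4829 genes at that level, of 14836 genes in all. Since the differences from 0 dpa chose the members, they are given as a description and carry no test.

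The libraries came from bulk RNA-seq of wild-type (WT) fish, with no other genotype and no treatment beyond the amputation. The tissue reached 1 bone segment to either side of the plane, and the groups were 0, 4, 7, 14 and 21 dpa, with 3 libraries each. Each library was a pool of 10 animals, so p-values measure the spread between pools. The series' design text puts the second time slightly earlier than the sample labels do, and the labels' 4 dpa is used.

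A fin ray holds bone-lined fibroblasts under an epidermis, and it regrows after amputation from a blastema, a mass of proliferating cells that comes from fibroblasts and osteoblasts of the stump. These cells lay down new matrix, of fibrillar collagen, elastic microfibrils, bone and, in the young outgrowth, the rigid unmineralized fibres called actinotrichia. Collagen chains are folded and modified in the endoplasmic reticulum by chaperones, isomerases and hydroxylases before secretion, and metalloproteinases cut the matrix while it is remodelled.

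One rRNA gene took 2.26 to 71.6% of TPM, and the scaling factors spanned 0.579 to 1.49. TPM holds no absolute depth, and 11797 to 13282 genes were above 0 in a library. By the spacing of their low TPM values the libraries were grouped into sets, with the number of sets fixed at 2. Set A comprised all libraries of day 0 and day 4 with replicates 1 and 3 of day 7. The remaining 7 libraries, replicate 2 of day 7 and those of days 14 and 21, made up set B. The labels name no batch, so any difference of 14 or 21 dpa from 0 or 4 dpa cannot be told apart from a difference between sets. Of 22 epidermal marker genes 18 were in the table, and they summed to 22967 to 32939 scaled TPM at 0 dpa, 14824 to 17148 on day 4, 18583 to 20032 on day 7, 20245 to 21027 on day 14 and 22709 to 24176 on day 21. Muscle markers, 11 of 12 in the table with pvalb2 at 0 throughout, summed to at most 3.39 in any library. In bulk tissue, more cells of a type and more RNA per cell cannot be told apart.

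The score, a difference on the log2(scaled TPM + 1) scale, ran from 1.89 for mfap2 to 0.60 for acvrl1, with a median of 0.80. The members' median difference from 0 dpa was 1.2 on day 4, 1.09 on day 7, 1.05 on day 14 and 1.00 on day 21. The mean was highest on day 4 for 42 members, on day 7 for 23, on day 14 for 17 and on day 21 for 18, and 21 dpa was the lowest of the later times for 46. In 73 members all 12 later libraries lay above the highest 0 dpa library, which held for 2.69% of the 4829 genes, and the rule itself favours such genes. In 53 members the 0 dpa mean was under 5 scaled TPM. The last members in rank were sept15, plin6 and acvrl1, with scores of 0.61, 0.61 and 0.60, and the first genes left out were tmem150aa, fat1a and tbx1, with 0.60, 0.59 and 0.59. The choice therefore ended inside a continuous range of scores.

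**Figure D1:**
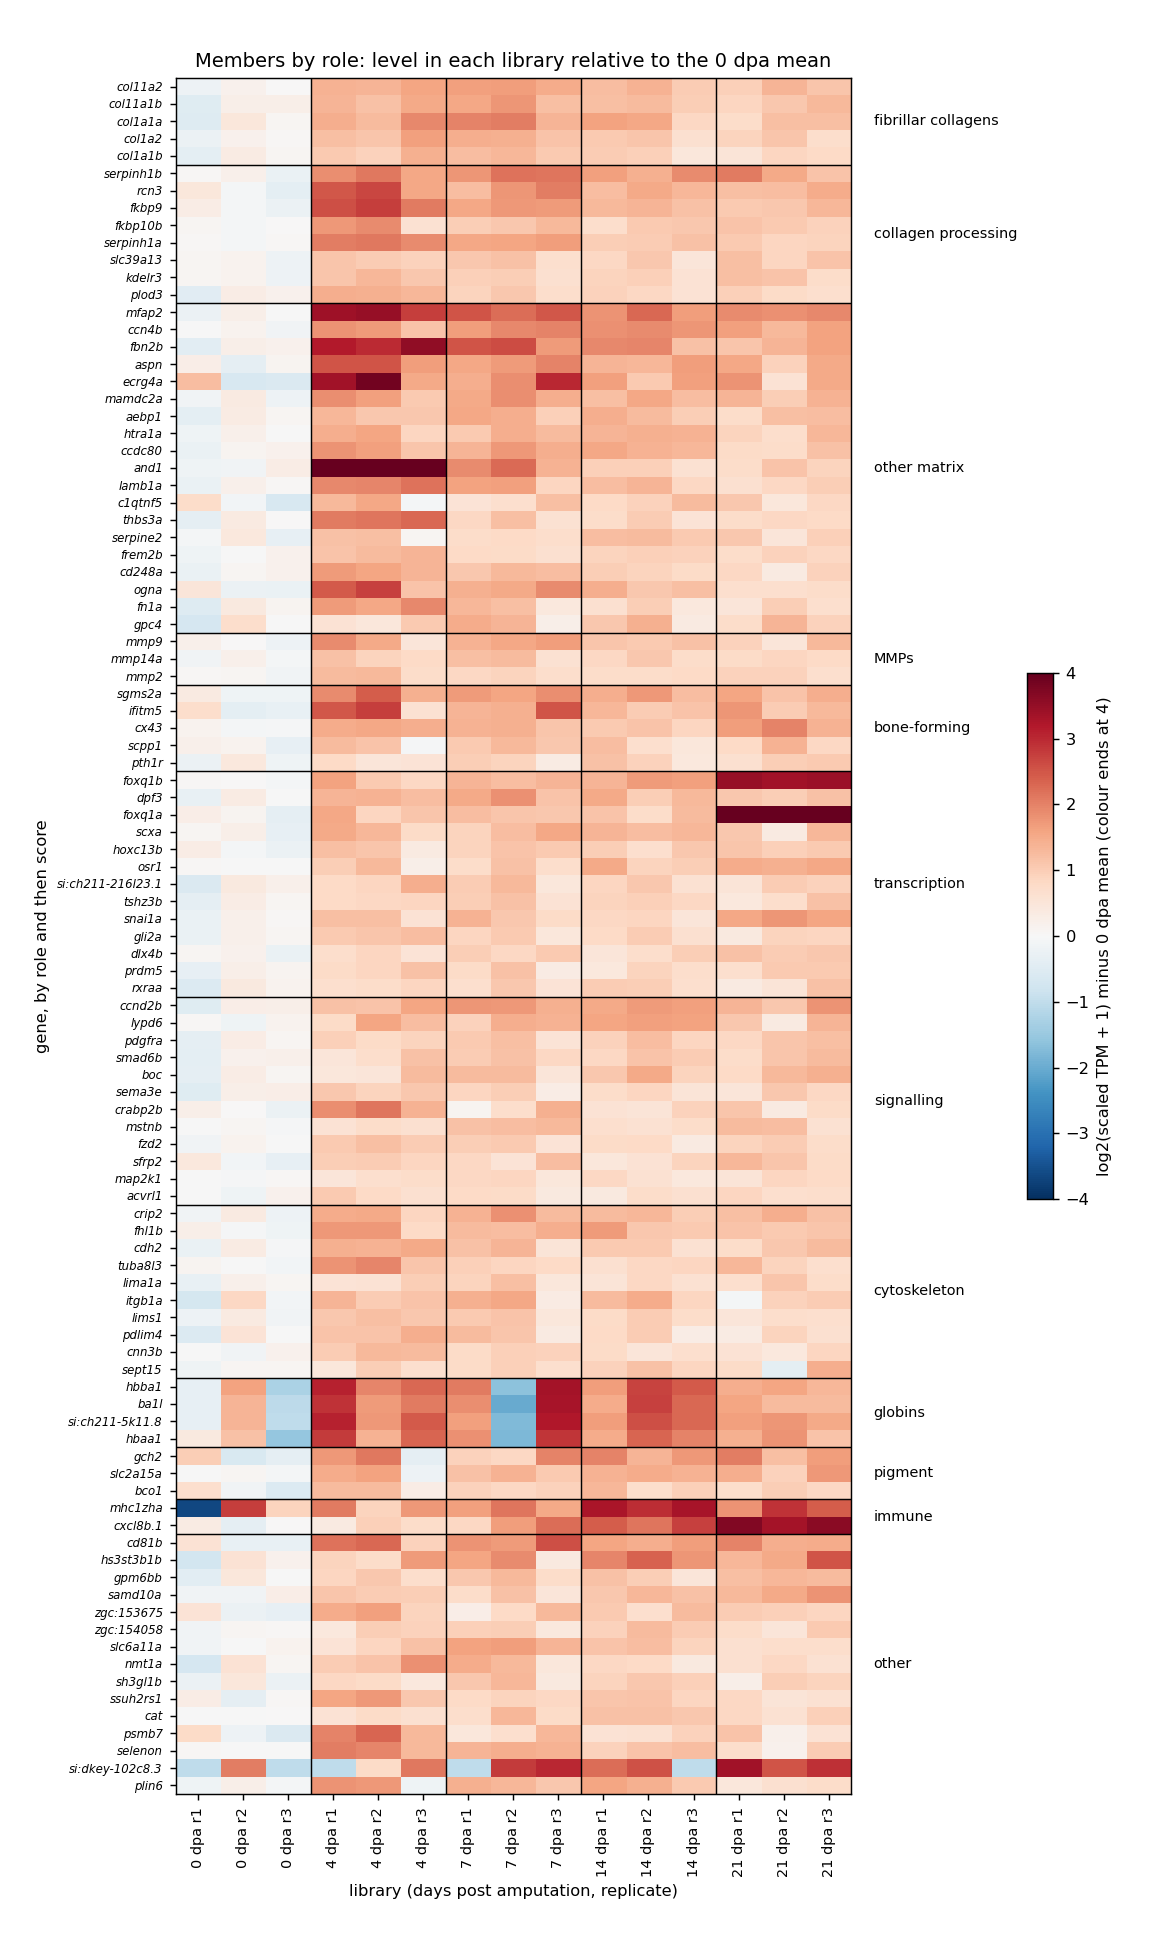
Heatmap of 99 of the 100 members (rows, grouped by role and ordered by score) in the 15 libraries (columns, 0 to 21 dpa), with colour for log2(scaled TPM + 1) minus the 0 dpa mean and the end colours for values beyond 4 in either direction. Most rows are red in all 12 later libraries, while the globin rows are blue in 7 dpa replicate 2, foxq1a and foxq1b are darkest at 21 dpa and and1 is darkest at 4 dpa.

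The choice was run again 15 times, each time without 1 library. Of the 100 members, 45 were chosen in all 15 of these runs and 55 were missed at least once. Within set A the members' median difference from 0 dpa was 1.2 at 4 dpa and 1.07 in the 2 set A libraries of 7 dpa, and it was 1.27 in the set B library of 7 dpa. These values went into the choice, which fixed the direction of each group's mean, so they are a description and the part of library set was not tested.

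By their known roles, assigned after the members were seen, 5 members were fibrillar collagen chains, 8 were genes of collagen processing and the secretory pathway, and 19 were other matrix or secreted proteins. A further 13 were transcription regulators, 12 signalling genes, 10 cytoskeleton and adhesion genes, 6 genes of bone-forming cells, 4 globin chains, 3 matrix metalloproteinases, 3 pigment genes and 2 immune genes, and 15 were given no class. All members in the collagen and collagen processing classes, and the 3 metalloproteinases, had their 12 later libraries above every 0 dpa library. None of the globin and pigment genes did. Such a separation held for 73 of all 100 members and for 2.69% of the 4829 genes from which they were chosen. These values went into the choice, so the comparison of classes is a description. Members named beyond the 12 of largest score, the leading members of each gene list and the members called between later times were picked after their values were seen.

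**Figure D2:**
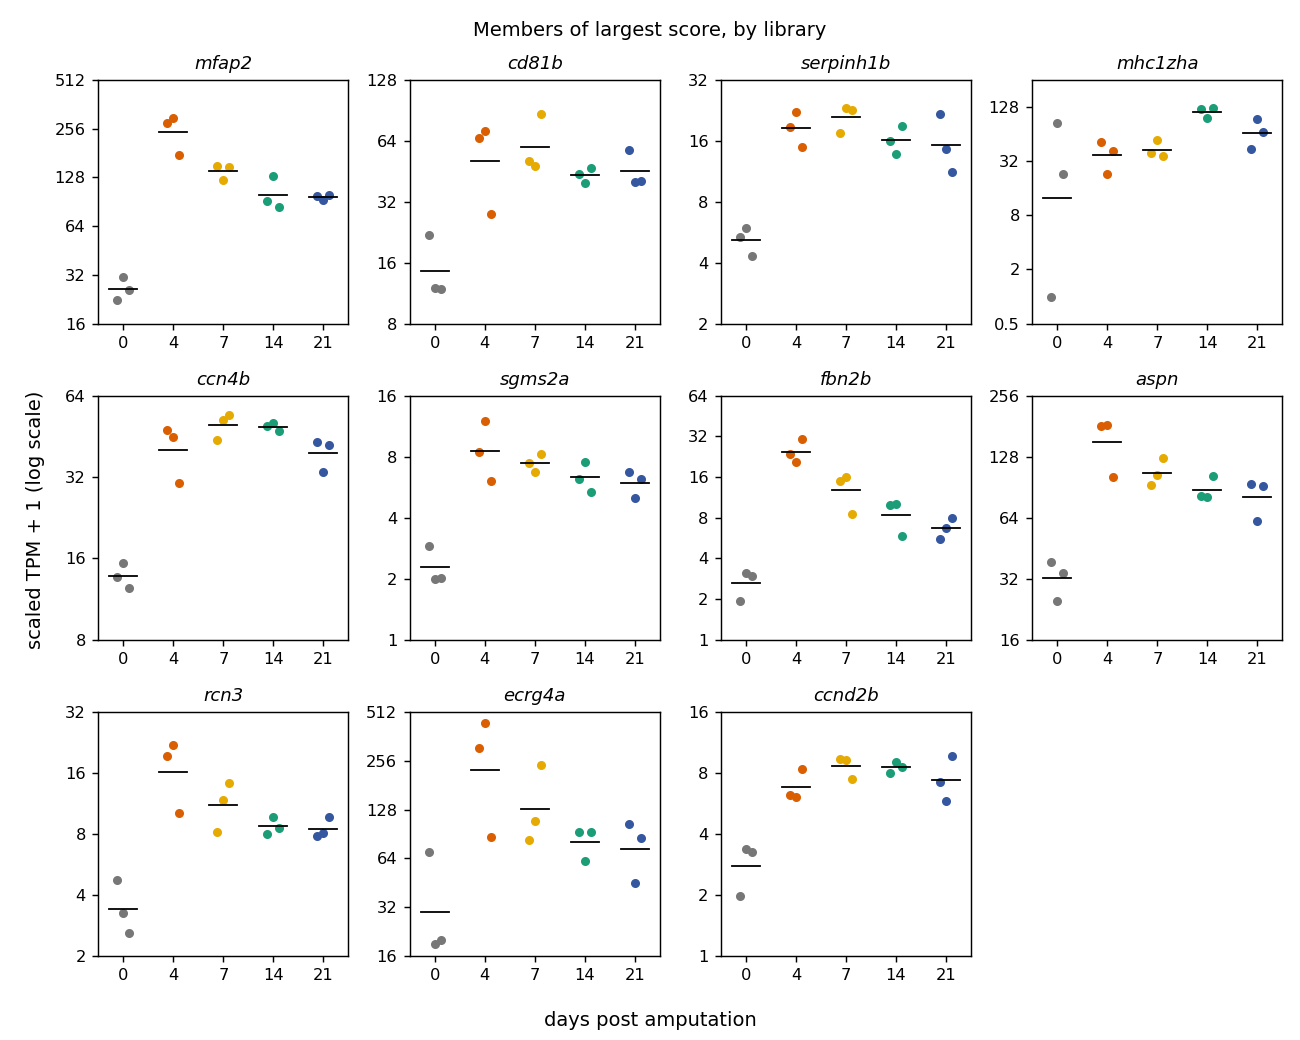
Scaled TPM plus 1 on a log2 axis for 11 of the 12 members of largest score, against days post amputation, with 1 point per library and a line at the mean of the log values. The later points lie above all 0 dpa points for 9 of these genes, and they overlap them for mhc1zha and ecrg4a.

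The fibrillar collagen members were both chains of collagen I, the main collagen of bone and dermis, and 2 chains of collagen XI, which sits inside collagen fibrils and sets their width. All 5 had their highest mean at 7 dpa. The collagen I gene col1a1a had 104, 207 and 159 at 0 dpa, 411, 364 and 569 on day 4, 599.9, 624 and 393 on day 7, 458, 445 and 269.8 on day 14, and 254, 350.4 and 345 on day 21. The later libraries, from 254 upwards, were all above the 0 dpa ones, which reached 207. The second alpha-1 copy, col1a1b, had means of 166 ± 40.2 at 0 dpa, 362 ± 69.5 on day 4, 379 ± 37.4 on day 7, 289 ± 56.1 on day 14 and 271 ± 34.3 on day 21 (SD, n = 3 each). For col1a2 the means were 143 ± 20.7 at 0 dpa, 359 ± 72.4 on day 4, 362 ± 40.4 on day 7, 276 ± 45.5 on day 14 and 269 ± 39.9 on day 21. In all 3 collagen I genes the later means were highest at 7 dpa, then at 4, 14 and 21 dpa. The collagen XI genes were expressed far lower. For col11a2 the values were 2.49, 3.46 and 3.07 at 0 dpa, 9.36, 9.23 and 10.9 on day 4, 11.3, 11.6 and 10.2 on day 7, 8.47, 9.44 and 7.00 on day 14, and 6.71, 9.18 and 7.62 on day 21. For col11a1b the means were 4.97 ± 1.57 at 0 dpa, 13.9 ± 1.70 on day 4, 15.8 ± 3.29 on day 7, 12.0 ± 1.39 on day 14 and 11.4 ± 1.80 on day 21. Reads shared between col1a1a and col1a1b could be split in ways the sources do not record, so the 2 copies are less certain apart than together.

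The collagen processing members covered several steps in the endoplasmic reticulum. The collagen chaperone HSP47 is encoded by serpinh1a and serpinh1b. The copy serpinh1b had 4.33, 4.95 and 3.30 at 0 dpa, 17.8, 21.3 and 13.9 on day 4, 16.4, 22.1 and 21.7 on day 7, 14.9, 12.8 and 17.9 on day 14, and 20.6, 13.6 and 10.2 on day 21. No later library of it lay in the 0 dpa range. The other copy, serpinh1a, had 5.21, 4.64 and 5.21 at 0 dpa, 23.6, 25.1 and 21.2 on day 4, 16.6, 17.1 and 18.2 on day 7, 10.9, 11.2 and 12.6 on day 14, and 11.5, 10.00 and 10.0 on day 21. It showed the 4 dpa libraries highest and each later time lower in mean than the one before. The isomerases fkbp9 and fkbp10b act on prolines of folding chains. For fkbp9 the level was 3.98, 2.83 and 2.44 at 0 dpa, 22.9, 26.2 and 16.1 on day 4, 10.7, 12.3 and 12.2 on day 7, 8.88, 9.39 and 8.11 on day 14, and 7.41, 7.60 and 9.12 on day 21. For fkbp10b it averaged 4.87 ± 0.367 at 0 dpa, 15.6 ± 6.81 on day 4, 11.7 ± 1.49 on day 7, 10.3 ± 1.51 on day 14 and 11.1 ± 0.864 on day 21. Both had their highest mean at 4 dpa and stayed above 0 dpa. The calcium-binding reticulum protein rcn3 had 3.71, 2.26 and 1.61 at 0 dpa, 18.3, 21.0 and 9.09 on day 4, 7.14, 10.7 and 13.3 on day 7, 6.97, 8.72 and 7.58 on day 14, and 6.84, 7.12 and 8.67 on day 21. The lysyl hydroxylase plod3 averaged 3.81 ± 1.22 at 0 dpa, 11.4 ± 0.560 on day 4, 7.77 ± 1.1 on day 7, 7.12 ± 0.960 on day 14 and 7.19 ± 0.787 on day 21. The zinc transporter slc39a13, whose loss in people causes a connective tissue disorder, averaged 3.13 ± 0.493 at 0 dpa, 7.29 ± 0.571 on day 4, 7.15 ± 1.42 on day 7, 6.25 ± 1.51 on day 14 and 7.65 ± 1.08 on day 21. The receptor kdelr3, which returns resident proteins to the reticulum, had 4.74, 4.92 and 3.66 at 0 dpa, 10.7, 12.5 and 10.4 on day 4, 9.44, 9.65 and 7.48 on day 7, 8.96, 9.37 and 6.99 on day 14, and 11.5, 10.9 and 7.98 on day 21. Of these 8 genes 6 were highest at 4 dpa, and serpinh1b at 7 dpa and slc39a13 at 21 dpa were the others.

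Microfibrils, the scaffold of elastic fibres, are built from fibrillins and associated glycoproteins. The glycoprotein gene mfap2, which ranked first, had 21.5, 30.0 and 24.8 at 0 dpa, 276, 295 and 176 on day 4, 149, 122 and 146 on day 7, 90.1, 129 and 82.8 on day 14, and 96.9, 91.5 and 99.1 on day 21. Its lowest later library, at 82.8, stood above the highest 0 dpa library, at 30.0. The fibrillin gene fbn2b had 0.952, 2.11 and 1.97 at 0 dpa, 22.6, 19.6 and 29.8 on day 4, 14.0, 15.1 and 7.58 on day 7, 8.87, 9.19 and 4.88 on day 14, and 4.61, 5.72 and 7.02 on day 21. Its differences from 0 dpa were 3.23 on day 4, 2.28 on day 7, 1.68 on day 14 and 1.35 on day 21. Both genes were thus highest at 4 dpa and lowest among later times at 21 dpa.

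The actinotrichia protein gene and1 had the widest range of any member between its time means, on the log2(scaled TPM + 1) scale. Its level was 3.99, 4.11 and 5.85 at 0 dpa, 380.2, 519 and 116 on day 4, 19.8, 26.2 and 13.5 on day 7, 9.75, 9.83 and 7.52 on day 14, and 8.28, 11.2 and 9.33 on day 21. All 4 dpa libraries exceeded 100, the 7 dpa libraries lay between 13.5 and 26.2, and the 14 and 21 dpa libraries stayed between 7.52 and 11.2, above the 0 dpa maximum of 5.85. The thrombospondin gene thbs3a, for a matrix glycoprotein, had 5.14, 8.94 and 6.82 at 0 dpa, 31.7, 33.4 and 37.3 on day 4, 12.7, 16.8 and 10.9 on day 7, 12.1, 14.6 and 10.4 on day 14, and 11.9, 12.9 and 12.7 on day 21. Its 4 dpa libraries again lay apart from all others.

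Asporin, encoded by aspn, and osteoglycin, encoded by ogna, are small leucine-rich proteoglycans that bind collagen. Asporin transcripts stood at 37.7, 24.0 and 33.3 at 0 dpa, 181, 183 and 101 on day 4, 92.2, 102.6 and 126 on day 7, 81.3, 80.2 and 102 on day 14, and 93.3, 60.4 and 91.0 on day 21. No later library reached down to the 0 dpa range. For ogna the level was 10.2, 5.68 and 5.66 at 0 dpa, 42.8, 52.2 and 16.3 on day 4, 20.2, 21.7 and 28.6 on day 7, 20.6, 15.6 and 17.2 on day 14, and 11.7, 11.5 and 12.1 on day 21. Both were highest in 4 dpa replicates 1 and 2, and 4 dpa replicate 3 lay lower. The secreted matricellular protein gene ccn4b had 12.7, 14.3 and 11.5 at 0 dpa, 46.9, 44.2 and 29.5 on day 4, 42.9, 51.2 and 53.3 on day 7, 48.4, 49.9 and 46.3 on day 14, and 42.1, 32.6 and 41.0 on day 21. Its later libraries lay between 29.5 and 53.3, against a 0 dpa maximum of 14.3. The secreted peptide precursor gene ecrg4a had 68.8, 18.0 and 19.2 at 0 dpa, 305, 435 and 85.3 on day 4, 81.5, 108 and 239.7 on day 7, 91.8, 60.8 and 91.4 on day 14, and 102, 43.9 and 84.5 on day 21. Here 0 dpa replicate 1 lay within the later range, above 14 dpa replicate 2 and 21 dpa replicate 2. Among members outside the naming rule, the laminin chain gene lamb1a averaged 2.22 ± 0.547 at 0 dpa, 12.0 ± 1.28 on day 4, 7.52 ± 2.38 on day 7, 6.14 ± 1.31 on day 14 and 4.64 ± 0.675 on day 21. The fibronectin gene fn1a averaged 9.39 ± 3.09 at 0 dpa, 32.5 ± 4.62 on day 4, 19.7 ± 6.35 on day 7, 15.4 ± 3.28 on day 14 and 15.6 ± 3.02 on day 21. Epidermal marker sums were lowest at 4 dpa, where 11 of these 19 matrix genes were highest. The markers did not move together. The most abundant, krt91, had 11672 to 18176 at 0 dpa and 6186 to 7149 on day 4, while krt17 had 223 to 275 and 649 to 952. Of 17 tested epidermal markers 2 were called higher at 4 against 0 dpa, against 7.87% of all genes, and 3 lower, against 7.24%. The part of tissue composition was not tested.

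All 3 metalloproteinase members kept clear of 0 dpa, beside 73 of all 100 members. The gelatinase gene mmp9 had 40.6, 35.6 and 30.8 at 0 dpa, 134, 104 and 49.5 on day 4, 94.9, 106 and 116 on day 7, 76.8, 73.6 and 81.0 on day 14, and 68.3, 50.4 and 89.1 on day 21. Its 4 dpa replicate 3, at 49.5, came nearest to the 0 dpa libraries. The membrane-bound enzyme gene mmp14a, whose product activates the gelatinase made from mmp2 in mammals, had 11.0, 14.2 and 11.6 at 0 dpa, 28.7, 23.4 and 21.9 on day 4, 29.6, 30.6 and 18.9 on day 7, 22.3, 26.8 and 21.0 on day 14, and 21.3, 23.0 and 21.9 on day 21. The mmp2 gene itself averaged 44.7 ± 3.91 at 0 dpa, 97.8 ± 20.4 on day 4, 78.9 ± 5.90 on day 7, 76.0 ± 2.33 on day 14 and 81.1 ± 8.14 on day 21. The levels of mmp14a and mmp2 varied little among later times. Osteoclasts also express mmp9, and the osteoclast list (14 of 23 genes in the table, mmp9 among them) summed to 259 to 361 scaled TPM at 0 dpa, 241 to 791 on day 4, 417 to 703 on day 7, 284 to 329 on day 14 and 236 to 315 on day 21. Their part in the mmp9 level was not tested.

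Among genes of bone-forming cells, the sphingomyelin synthase gene sgms2a, whose human counterpart is mutated in a brittle bone disorder, had 1.91, 0.999 and 1.02 at 0 dpa, 7.48, 11.1 and 5.10 on day 4, 6.47, 5.72 and 7.26 on day 7, 5.24, 6.53 and 4.38 on day 14, and 5.77, 4.03 and 5.24 on day 21. The osteoblast membrane protein gene ifitm5 had 94.7, 44.3 and 46.8 at 0 dpa, 327, 399 and 89.5 on day 4, 150.0, 159 and 340.0 on day 7, 146, 119 and 130.4 on day 14, and 202, 119 and 143 on day 21. In it 4 dpa replicate 3, at 89.5, lay just below 0 dpa replicate 1, at 94.7. The mineral-binding phosphoprotein gene scpp1 had 5.92, 5.71 and 3.83 at 0 dpa, 13.7, 12.5 and 4.87 on day 4, 11.5, 14.0 and 11.9 on day 7, 13.2, 8.70 and 7.40 on day 14, and 9.55, 14.8 and 9.84 on day 21. The same library overlapped 0 dpa again. The gap junction gene cx43, mutated in the zebrafish short fin line, averaged 5.51 ± 0.567 at 0 dpa, 17.3 ± 0.737 on day 4, 15.1 ± 1.88 on day 7, 12.1 ± 1.31 on day 14 and 20.2 ± 4.46 on day 21. The parathyroid hormone receptor gene pth1r averaged 3.26 ± 1.16 at 0 dpa, 5.40 ± 0.709 on day 4, 6.08 ± 1.61 on day 7, 6.61 ± 1.87 on day 14 and 6.84 ± 1.16 on day 21. Of these 5 genes 2 were clear of 0 dpa in all 12 later libraries, beside 73 of all 100 members.

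Transcription regulators made up 13 members, and 12 of them were clear of 0 dpa throughout, beside 73 of all 100 members. The forkhead genes foxq1a and foxq1b stood apart in time among these members. For foxq1a the libraries read 1.99, 1.66 and 0.935 at 0 dpa, 6.34, 3.49 and 4.41 on day 4, 4.87, 4.32 and 4.29 on day 7, 4.44, 3.15 and 5.03 on day 14, and 44.4, 56.5 and 45.1 on day 21. For foxq1b they read 4.72, 4.68 and 4.29 at 0 dpa, 16.0, 10.5 and 8.89 on day 4, 13.3, 12.1 and 13.1 on day 7, 13.3, 17.0 and 16.3 on day 14, and 60.6, 56.5 and 58.8 on day 21. From 4 to 14 dpa both held a modest plateau, and at 21 dpa all libraries were several times higher. The repressor gene snai1a, known for its role in mesenchymal transitions, had 1.76, 2.79 and 2.44 at 0 dpa, 6.65, 6.63 and 3.98 on day 4, 7.61, 5.97 and 4.6 on day 7, 4.82, 4.96 and 3.64 on day 14, and 8.55, 10.2 and 8.78 on day 21. It was also highest at 21 dpa. Steadier members included the Hedgehog effector gli2a, with means of 4.68 ± 0.888 at 0 dpa, 11.3 ± 0.885 on day 4, 8.85 ± 1.94 on day 7, 8.91 ± 1.27 on day 14 and 8.34 ± 1.70 on day 21. The distal homeobox gene hoxc13b averaged 9.23 ± 1.88 at 0 dpa, 18.5 ± 5.72 on day 4, 19.7 ± 1.80 on day 7, 18.1 ± 2.60 on day 14 and 19.6 ± 1.12 on day 21. The tendon factor gene scxa averaged 3.08 ± 0.775 at 0 dpa, 8.49 ± 2.42 on day 4, 8.60 ± 2.1 on day 7, 8.96 ± 0.428 on day 14 and 6.88 ± 2.48 on day 21. The retinoid receptor partner rxraa, with 7.56 ± 2.69 at 0 dpa, 12.9 ± 0.971 on day 4, 13.2 ± 2.72 on day 7, 14.3 ± 1.94 on day 14 and 12.7 ± 4.43 on day 21, was the member of this class in which 1 later library overlapped 0 dpa.

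Signalling members reached into several pathways. The cell cycle regulator ccnd2b, a D-type cyclin, had 0.969, 2.37 and 2.24 at 0 dpa, 5.26, 5.07 and 7.33 on day 4, 8.40, 8.31 and 6.49 on day 7, 7.00, 8.03 and 7.61 on day 14, and 6.21, 4.82 and 8.75 on day 21. It was clear of 0 dpa in every later library. The secreted Wnt modulator sfrp2 had 15.2, 10.2 and 8.64 at 0 dpa, 22.9, 23.5 and 20.8 on day 4, 20.3, 16.4 and 27.1 on day 7, 15.4, 16.9 and 21.4 on day 14, and 29.2, 25.1 and 19.5 on day 21. The Wnt receptor gene fzd2 averaged 5.14 ± 0.600 at 0 dpa, 12.1 ± 0.790 on day 4, 10.2 ± 1.94 on day 7, 8.67 ± 1.63 on day 14 and 10.3 ± 1.07 on day 21. The Hedgehog co-receptor gene boc averaged 2.27 ± 0.718 at 0 dpa, 4.55 ± 1.93 on day 4, 5.69 ± 1.90 on day 7, 6.34 ± 1.70 on day 14 and 6.35 ± 1.60 on day 21. Members with a part in TGF-beta family signalling were a receptor, an inhibitor and a ligand. The receptor gene acvrl1 averaged 3.01 ± 0.488 at 0 dpa, 6.12 ± 1.08 on day 4, 5.30 ± 0.939 on day 7, 5.06 ± 0.75 on day 14 and 5.70 ± 0.469 on day 21. The inhibitory smad6b averaged 2.48 ± 0.740 at 0 dpa, 4.99 ± 1.47 on day 4, 5.86 ± 0.841 on day 7, 5.81 ± 0.721 on day 14 and 6.10 ± 1.24 on day 21, and the ligand gene mstnb, for myostatin, averaged 2.91 ± 0.175 at 0 dpa, 5.14 ± 0.314 on day 4, 8.16 ± 0.464 on day 7, 5.25 ± 0.261 on day 14 and 7.15 ± 1.92 on day 21. The kinase gene map2k1, which encodes an activator of Erk, the pathway named in the series title, averaged 6.17 ± 0.236 at 0 dpa, 10.1 ± 0.969 on day 4, 10.8 ± 1.76 on day 7, 10.1 ± 1.57 on day 14 and 10.8 ± 1.42 on day 21. Its differences from 0 dpa were 0.62 on day 4, 0.70 on day 7, 0.62 on day 14 and 0.71 on day 21, and it ranked 96 of 100. The retinoic acid binding protein gene crabp2b had 4.21, 3.45 and 2.76 at 0 dpa, 15.0, 18.3 and 10.6 on day 4, 3.79, 6.19 and 10.9 on day 7, 5.67, 5.38 and 7.49 on day 14, and 8.52, 4.75 and 6.60 on day 21. In it 7 dpa replicate 1 overlapped 0 dpa replicate 1, and 11 of 12 later libraries were clear.

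In the cytoskeleton and adhesion class 7 of 10 members were clear of 0 dpa, near the 73 of all 100 members. The actin-binding protein gene lima1a had 5.61, 8.35 and 7.65 at 0 dpa, 10.9, 11.0 and 15.2 on day 4, 13.9, 17.5 and 10.2 on day 7, 10.6, 13.4 and 11.4 on day 14, and 12.0, 16.5 and 12.6 on day 21. The cadherin gene cdh2, for cell adhesion in mesenchyme, averaged 2.16 ± 0.659 at 0 dpa, 7.51 ± 0.382 on day 4, 5.51 ± 1.85 on day 7, 4.88 ± 0.931 on day 14 and 5.45 ± 1.15 on day 21. The integrin chain gene itgb1a averaged 5.79 ± 3.68 at 0 dpa, 13.0 ± 1.77 on day 4, 13.2 ± 5.65 on day 7, 13.4 ± 3.00 on day 14 and 9.04 ± 3.60 on day 21. For itgb1a 2 later libraries overlapped 0 dpa replicate 2, which was its highest 0 dpa library at 9.89. The tetraspanin gene cd81b, second in rank and placed in no class, had 20.9, 11.0 and 10.8 at 0 dpa, 65.3, 70.1 and 26.9 on day 4, 49.6, 47.0 and 85.6 on day 7, 42.9, 38.6 and 45.8 on day 14, and 56.3, 39.0 and 39.7 on day 21. It kept clear of 0 dpa.

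Fewest later libraries lay above all 0 dpa libraries for mhc1zha, with 4 of 12, and psmb7, with 6 of 12. The class I histocompatibility gene mhc1zha had 0, 84.7 and 22.0 at 0 dpa, 51.4, 22.1 and 40.6 on day 4, 38.5, 54.5 and 35 on day 7, 119, 95.8 and 122 on day 14, and 42.2, 92.6 and 66.3 on day 21. It was listed at 0 in 0 dpa replicate 1 and exceeded most later libraries in 0 dpa replicate 2. Without 0 dpa replicate 1 its score was -0.26. The uncharacterized gene si:dkey-102c8.3 was listed at 0 in 2 of the 0 dpa libraries and in 3 of the later ones. The genes mhc1zha and si:dkey-102c8.3 met the rule through means that rest on values of 0.

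The chemokine gene cxcl8b.1, a neutrophil attractant, had 11.5, 6.80 and 9.12 at 0 dpa, 11.77, 18.3 and 15.5 on day 4, 16.6, 30.6 and 45.9 on day 7, 52.5, 42.9 and 65.0 on day 14, and 128, 99.6 and 119 on day 21. Every later library was above 0 dpa, and the 21 dpa libraries were above all others. The pan-leukocyte list, 7 of 9 genes in the table, summed to 124 to 193 scaled TPM at 21 dpa and to 219.6 to 385 at 0 dpa, and the neutrophil list, 8 of 11 genes, to 68.7 to 278 at 21 dpa and to 58.2 to 169 at 0 dpa. In the neutrophil sum lect2l alone held 41.6 to 249 at 21 dpa and 27.4 to 146 at 0 dpa. At 14 dpa the neutrophil list summed to 38.7 to 51.1, with lect2l at 4.61 to 7.44. Of 7 tested neutrophil genes 3 were called higher at 14 against 0 dpa, against 4.55% of all genes, and 1 lower, against 5.58%. At 21 against 0 dpa 0 of them were called higher and 0 lower. The part of these cells in cxcl8b.1 was not tested.

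The globin members hbba1, ba1l, si:ch211-5k11.8 and hbaa1 are chains of hemoglobin, made in red blood cells. The beta chain gene hbba1 had 15.9, 63.5 and 7.74 at 0 dpa, 179.6, 80.4 and 103.1 on day 4, 88.6, 5.77 and 214 on day 7, 66.5, 139 and 114 on day 14, and 57.5, 62.4 and 52.3 on day 21. Summed over the 4 genes, 7 dpa replicate 2 held 10.96, below all 0 dpa libraries, which held 40.2, 134 and 17.97. The other later libraries held 125 to 474, and only 21 dpa replicate 3, at 125, was also under the 0 dpa maximum. The erythrocyte list, 6 of 7 genes in the table, shares hbba1 and hbaa1 with these sums and is no separate measure. It summed to 9.77 to 81.7 scaled TPM at 0 dpa, 101 to 235 on day 4 and 7.13 to 275 on day 7. On day 14 it summed to 87.3 to 179 and on day 21 to 69.0 to 89.5. Its other genes were far lower, with hbba2 at up to 4.13, alas2 at up to 1.25, hbaa2 at up to 0.669 and slc4a1a at up to 0.245 in any library, and how much blood each pool held was not tested.

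The pigment members gch2, for pteridine synthesis, slc2a15a, a transporter gene needed in zebrafish xanthophores, and bco1, which cleaves carotenoids, all had their highest mean at 14 dpa. The first of these, gch2, had 17.0, 5.00 and 6.12 at 0 dpa, 29.4, 38.1 and 6.15 on day 4, 16.4, 15.4 and 35.3 on day 7, 35.3, 22.3 and 29.8 on day 14, and 36.9, 19.9 and 28 on day 21. In all 3 genes 4 dpa replicate 3 overlapped the 0 dpa libraries. The pigment list, 9 of 13 genes in the table and gch2 among them, summed to 37.5 to 48.2 scaled TPM at 0 dpa, 27.9 to 102 on day 4, 74.6 to 85.2 on day 7, 95.05 to 116 on day 14 and 70.5 to 99.4 on day 21, and its part was not tested.

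Differences among the later times did not define the score, although the choice demands a high level at each of them, and they were tested with limma over 10235 genes, all 100 members included. The F test over 4, 7, 14 and 21 dpa called 20 members at an adjusted p under 0.05, against 19.9% of all genes tested. In this fit, then, the members as a group were called about as often as all genes. The choice disfavours genes with a deep low at any later time, so counts between later times are not independent of it. Without 4 dpa replicate 1 or 2 the F test called 13 members, and 1331 or 1447 of all 10235 genes tested. On deposited TPM it called 8 members and 696 of all genes. With library set in the model it called 8 members and 386 of all genes. Only 7 dpa held libraries of both sets. The model with library set therefore takes the set difference from 7 dpa replicate 2 against replicates 1 and 3. Resting on 1 library, it does not settle the part of set, whether a call is kept or lost.

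Between 4 and 7 dpa and between 7 and 14 dpa few members were called, as were few of all genes tested. At 7 against 4 dpa 3 members fell, against 2.5% of all genes, and 1 rose, against 1.13%. The actinotrichia gene and1 fell by 3.82 on the log2 scale (SE 0.41, limma adjusted p = 7.73e-05). The matrix gene thbs3a fell by 1.29 (SE 0.20, limma adjusted p = 0.002), and its adjusted p was 0.0527 on deposited TPM and 0.0579 without the 4 libraries in which rRNA passed 60% of TPM. The isomerase gene fkbp9 fell by 0.81 (SE 0.19, limma adjusted p = 0.0302). That call was lost without 4 dpa replicate 1 or 2 or without any 1 of the 7 dpa libraries, with adjusted p up to 0.149. The transporter gene slc6a11a, for uptake of the transmitter GABA, had 10.4, 11.0 and 8.67 scaled TPM at 7 dpa, against 4.45, 5.84 and 7.37 at 4 dpa, and rose by 0.69 (SE 0.17, limma adjusted p = 0.0396). This call was lost in 11 of 15 fits without 1 library. The count of 4 members became 2 without 4 dpa replicate 1 or 2 or 7 dpa replicate 2 and 10 without 4 dpa replicate 3. All genes called went from 372 to 159, 171 and 211 in the first 3 of those fits and to 398 in the last.

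At 14 against 7 dpa 1 member fell, against 1.86% of all genes, and 0 rose, against 1.6%. An unadjusted limma p under 0.05 was found for 7 of the 100 members and for 1715 of the 10235 genes tested. The member that fell was serpinh1a, by 0.55 (SE 0.14, limma adjusted p = 0.049). It had 10.9, 11.2 and 12.6 scaled TPM at 14 dpa, against 16.6, 17.1 and 18.2 at 7 dpa. The groups did not overlap, but 14 of 15 fits without 1 library lost the call, with adjusted p up to 0.163.

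The comparison of 21 against 14 dpa lies within set B. It called 2 members higher, against 0.684% of all genes, and 0 lower, against 0.723%. Before adjustment, 9 of the 100 members and 1098 of the 10235 genes tested had a limma p under 0.05. Both called members were forkhead genes. At 21 dpa foxq1a had 44.4, 56.5 and 45.1 scaled TPM, against 4.44, 3.15 and 5.03 at 14 dpa, a log2 difference of 3.26 (SE 0.22, limma adjusted p = 3.27e-06). For foxq1b the values were 60.6, 56.5 and 58.8 at 21 dpa, against 13.3, 17.0 and 16.3 at 14 dpa, a difference of 1.86 (SE 0.19, limma adjusted p = 1.79e-04). Neither gene's groups overlapped and no fit without 1 library lost either call, while on deposited TPM foxq1b had an adjusted p of 0.195. The count of members became 4 without 4 dpa replicate 3 or without 7 dpa replicate 1. All genes called went from 144 to 180 and 127 in those fits. Reads shared between these copies could have been split in ways not recorded. A rise in this comparison was not particular to them. In the list of immediate early and AP-1 genes, which held no member, 10 of 24 tested genes rose and 0 fell.

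**Figure D3:**
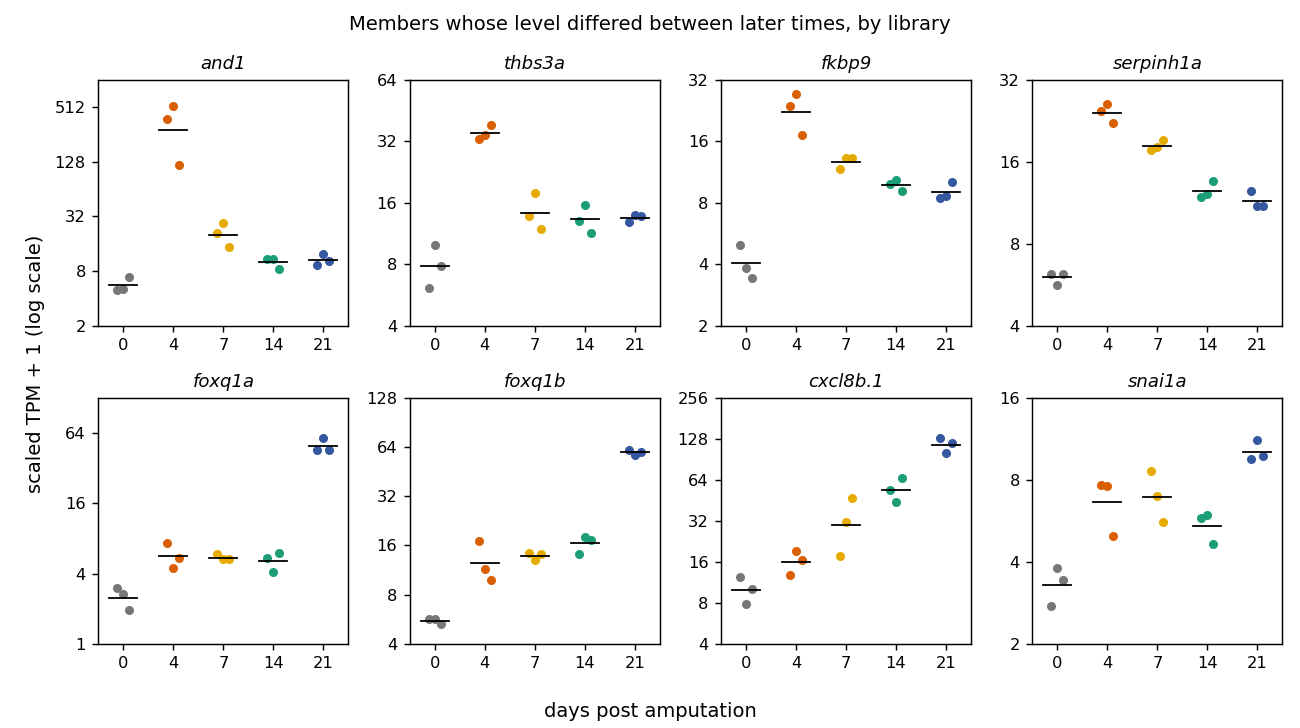
Scaled TPM plus 1 on a log2 axis against days post amputation for 8 members that differed between later times, with 1 point per library and a line at the mean of the log values. The upper 4 genes are highest at 4 dpa and the lower 4 at 21 dpa, and in all 8 the later points lie above the 0 dpa points.

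Over the whole later span more members were called, as were more of all genes tested, and most of the called members fell. At 21 against 4 dpa 21 members fell, against 11.8% of all genes, and 4 rose, against 10.2%. The median difference was -0.25 for the members and -0.01 for all genes tested. It was -0.10 for the 4829 genes with a mean scaled TPM of at least 5, the level from which the members came. In a fit of those genes alone 684 fell and 477 rose, with 21 and 3 members among them. Of the 21 that fell, 11 were matrix or secreted protein genes and 4 belonged to collagen processing, namely fkbp9, plod3, rcn3 and serpinh1a. The remaining 6 were cnn3b, tuba8l3, psmb7, selenon, ssuh2rs1 and crabp2b. The 11 matrix genes were and1, aspn, ccdc80, cd248a, fbn2b, fn1a, frem2b, lamb1a, mfap2, ogna and thbs3a. None of the 5 fibrillar collagen genes was called, and their differences lay between -0.49 and -0.28. The largest fall was that of and1, by 4.76 (SE 0.41, limma adjusted p = 3.85e-06). The fibrillin gene fbn2b fell by 1.88 (SE 0.29, limma adjusted p = 3.81e-04) and mfap2 fell by 1.33 (SE 0.24, limma adjusted p = 0.00117). No fit without 1 library lost either call. With library set in the model, where 7 dpa replicate 2 alone sets the correction, the difference of mfap2 was -1.07 (limma adjusted p = 0.252). For ogna the fall was 1.43 (SE 0.34, limma adjusted p = 0.00738), with an adjusted p of 0.353 with library set in the model. The call of aspn was lost without 4 dpa replicate 1 or 2 or 21 dpa replicate 2, with adjusted p up to 0.132, and that of rcn3 without 4 dpa replicate 1 or 2 or any 1 of the 21 dpa libraries, with adjusted p up to 0.142.

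The 4 members that rose by 21 dpa were foxq1a, foxq1b, cxcl8b.1 and snai1a. The chemokine gene cxcl8b.1 had 128, 99.6 and 119 scaled TPM at 21 dpa, against 11.77, 18.3 and 15.5 at 4 dpa, a log2 difference of 2.86 (SE 0.31, limma adjusted p = 2.37e-05). The difference of foxq1a was 3.13 (SE 0.22, limma adjusted p = 7.08e-07) and that of foxq1b was 2.26 (SE 0.19, limma adjusted p = 2.68e-06). For snai1a it was 0.62 (SE 0.21, limma adjusted p = 0.0488), and 12 of 15 fits without 1 library lost that call. The 25 calls became 16 on deposited TPM and 15 or 16 without 4 dpa replicate 1, 4 dpa replicate 2 or 21 dpa replicate 2. All genes called went from 2249 to 993 on deposited TPM and to 1528, 1613 and 1570 without those libraries. With upper-quartile scaling 6 members rose and 16 fell, beside 1390 and 821 of all 10235 genes. With library set in the model 7 members were called, of which 3 rose and 4 fell, beside 101 and 159 of all genes. Among the members named here, and1, fbn2b, thbs3a, foxq1a, foxq1b and cxcl8b.1 were under 0.05 in that fit, with adjusted p from 0.00165 to 0.0286.

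**Figure D4:**
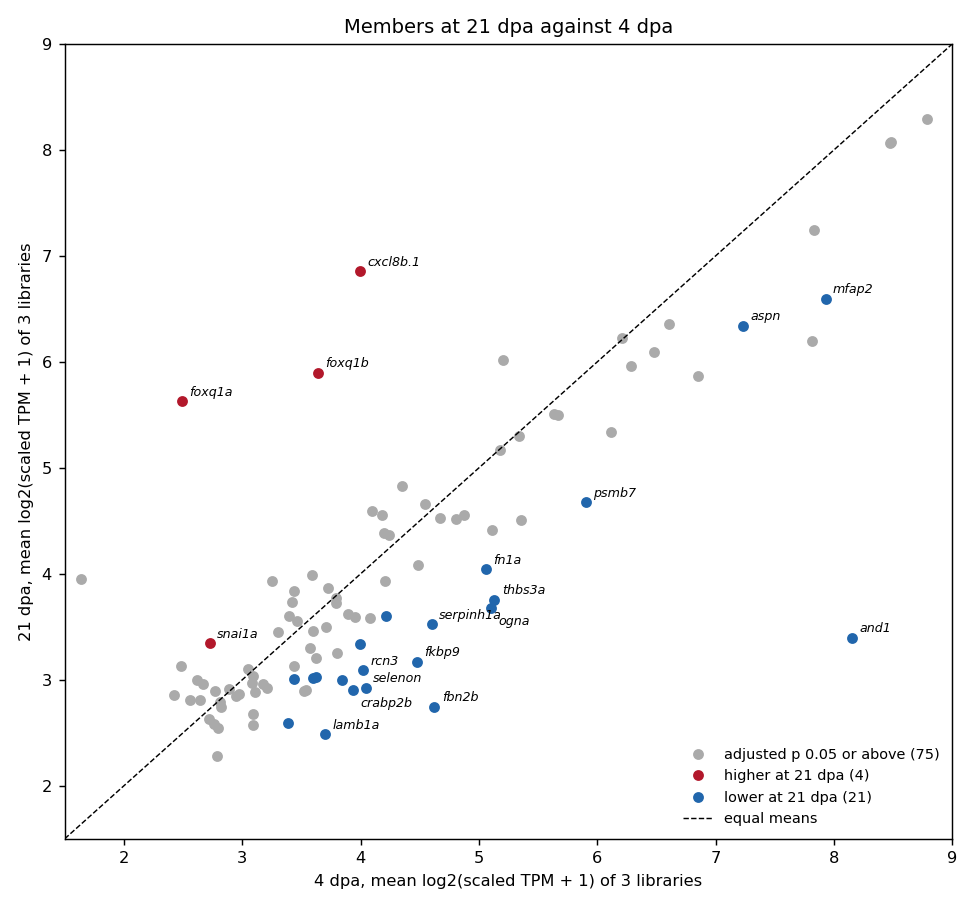
Each point is 1 of the 100 members, with its mean log2(scaled TPM + 1) at 4 dpa on the horizontal axis and at 21 dpa on the vertical axis (3 libraries each), and names given to called members that rose or that fell by at least 0.85. Blue points, 21 members that fell, lie below the dashed line of equal means with and1 farthest from it, and 4 red points that rose lie above it.

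At 14 against 4 dpa 15 members fell, against 9.2% of all genes, and 1 rose, against 7.75%. The riser was cxcl8b.1, with 52.5, 42.9 and 65.0 scaled TPM at 14 dpa, against 11.77, 18.3 and 15.5 at 4 dpa, and a log2 difference of 1.75 (SE 0.31, limma adjusted p = 0.00141). The largest falls were those of and1, by 4.84 (SE 0.41, limma adjusted p = 6.04e-06), fbn2b, by 1.56 (SE 0.29, limma adjusted p = 0.00193), and thbs3a, by 1.4 (SE 0.20, limma adjusted p = 3.37e-04). The 14 and 21 dpa comparisons share the 4 dpa libraries. The count was 9 or 10 without 4 dpa replicate 1 or 2 or without any 1 of the 14 dpa libraries, and 3 on deposited TPM or with library set in the model. All genes called went from 1735 to between 1117 and 1330 without 1 of those libraries. They numbered 482 on deposited TPM and 198 with library set. In the fit with library set cxcl8b.1 had an adjusted p of 0.212 and fbn2b one of 0.0604, while and1 and thbs3a had 0.00242 and 0.014.

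Related genes outside the members were read from 26 gene lists, of which 420 tested genes were not members. Being outside, they include none of the genes with the highest scores. The lists were chosen with earlier results of these data known, so an excess over all genes can come from that choice. At 4 against 0 dpa 111 of the 420 rose, against 7.87% of all genes tested, and 26 fell, against 7.24%. Of the 111, 27 were in the cell cycle list, which held no member. At 7 dpa 40 rose, against 2.53%, and 9 fell, against 2.45%, and at 14 dpa 42 rose, against 4.55%, and 23 fell, against 5.58%. At 21 dpa 65 rose, against 6.27%, and 30 fell, against 7.33%. With library set in the model 0 of the 420 were called at 14 dpa, and at 21 dpa 2 rose and 0 fell. Of all 10235 genes tested, that fit called 3 at 14 dpa and 31 at 21 dpa. With upper-quartile scaling, which moved the median of all genes to 0.18 at 14 dpa and 0.20 at 21 dpa, 66 of the 420 rose and 13 fell at 14 dpa and 94 rose and 12 fell at 21 dpa. Over all genes 626 rose and 216 fell at 14 dpa, and 975 rose and 335 fell at 21 dpa. On deposited TPM 79 of the 420 rose and 3 fell at 4 dpa, 4 rose and 0 fell at 7 dpa, 14 rose and 0 fell at 14 dpa, and 12 rose and 4 fell at 21 dpa. Over all genes 487 rose and 44 fell at 4 dpa, and 22 and 9 at 7 dpa. At 14 dpa 180 of all genes rose and 19 fell, and at 21 dpa 75 rose and 122 fell. In all, the count of list genes called at 14 dpa was 19 to 42 without 0 dpa replicate 1 or 3 or any 1 of the 14 dpa libraries. At 7 dpa it was 22 to 28 without 0 dpa replicate 1 or 3 or 7 dpa replicate 1 or 2 and 76 without 7 dpa replicate 3. At 21 dpa it was 59 or 60 without 0 dpa replicate 1 or 21 dpa replicate 2. In the same fits all genes called at 14 dpa went from 1037 to between 404 and 721. At 7 dpa they went from 510 to between 159 and 301, and to 965 without 7 dpa replicate 3. At 21 dpa they went from 1392 to 929 and 886.

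Outside the members, genes of the collagen, collagen-modifying and blastema matrix lists rose at 4 dpa in larger number than at later times. The share of all genes tested that rose was also largest then. It was 7.87% on day 4, 2.53% on day 7, 4.55% on day 14 and 6.27% on day 21. The microfibril list, with 6 further genes, had 1, 1, 0 and 1 that rose at these times. Differences between these counts were not tested. Of 12 further collagen genes 5 rose on day 4, 3 on day 7, and 1 each on days 14 and 21. The hypertrophic cartilage and osteoblast collagen gene col10a1a averaged 322 ± 15.7 scaled TPM at 4 dpa, against 88.8 ± 8.57 at 0 dpa (SD, n = 3 each), a log2 difference of 1.85 (SE 0.22, limma adjusted p = 6.04e-05). By 21 dpa, at 127 ± 35.7, its difference of 0.47 had an adjusted p of 0.17 in limma. Of 25 further collagen-modifying genes 10, 5, 2 and 4 rose at 4, 7, 14 and 21 dpa, and 1 fell at 14 dpa. Of 16 further actinotrichia and blastema matrix genes 7, 6, 4 and 3 rose and 0 fell. Of 15 further osteoblast genes 6, 4, 7 and 5 rose, while bglap, the bone protein osteocalcin, had no call, with 1403 ± 424 scaled TPM at 4 dpa, against 3812 ± 3048 at 0 dpa. The list of 31 further blastema transcription factors had 9, 5, 9 and 15 that rose, the most at 21 dpa. All 30 tested cell cycle genes of their list were outside the members, and 27 of them rose on day 4, 3 on day 7 and 0 on days 14 and 21, when 1 and 2 fell.

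Some members lie near each other in the RefSeq gene order of assembly GRCz12tu, in which 99 of 100 were found. The 4 globin genes lie together on chromosome 3 with at most 2 protein-coding genes between any pair. The proteoglycan genes aspn and ogna lie on chromosome 22 with 1 gene between, ifitm5 and cat are adjacent on chromosome 25, and smad6b and map2k1 lie on chromosome 18 with 4 genes between. Copies sharing a name stem were col1a1a and col1a1b, foxq1a and foxq1b, and serpinh1a and serpinh1b. Their members' promoter and protein sequences were not analysed here.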

How the data were processed

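The authors deposited a table of TPM values for 14836 gene symbols in 15 libraries, whose columns all sum to the same total. The submitters' processing notes name Trim Galore 0.6.7, cutadapt 3.5, Salmon 1.4.0 and the build danRer11, without stating each one's role. Per the labels' protocols, cDNA was amplified by PCR, cut with Tn5 and size-selected, and strand is not mentioned. TPM sets every library to one total, so an abundant rRNA lowers all other genes in its library. Each library was therefore divided by its median ratio over 10774 genes above 0 throughout.

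Tests used limma 3.58.1 in R 4.3.3 on log2(scaled TPM + 1), which understates changes of low genes. A model with a mean per time was fitted to the 10235 genes that reached a deposited TPM of 1 in 3 or more libraries, with an intensity trend and Benjamini-Hochberg adjustment over all of them. Tests were two-sided, and genes under 0.05 are called. The fit was tested on simulated data. The 2 library sets come from how sharply ratios of TPM values under 2 cluster between library pairs. Their number was a setting and not a finding. The measure of a pair compares the most ratios in a narrow window with the most in a wide one. It was 0.233 to 0.998 within sets and 0.130 to 0.212 between them, so the ranges lay close.

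The members and gene lists were chosen with earlier results of these data known. One member is not reported here by name. Named members were the 12 of largest score, the first 2 of each functional list, and up to 3 per direction in each later contrast; outside the members, the 2 most abundant tested genes of each list holding a member. No coordinates are given, since the gene table of assembly GRCz12tu differs from the build named. Alternatives covered scaling, pseudocount, filters, group medians, the samples fitted, library set, a replicate block and leaving out each library. Leaving out the libraries above 60% rRNA was added after seeing the data.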

Additional observations from a re-analysis of the deposited data

How the results depend on the processing

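The choice of members depended on its settings. Of the 100 members, 78 were chosen again on deposited TPM, 88 with upper-quartile scaling, 97 with a pseudocount of 0.1, 81 with 5, 68 with a minimum mean of 1, 84 from group medians, 75 without the 4 libraries above 60% rRNA, and 28 with a minimum mean of 20, which leaves fewer genes to choose from. Leaving out 1 library kept 72 to 95. The score of mhc1zha was -0.26 to 2.94 without 1 library, the lower value being that without 0 dpa replicate 1.

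Counts of members called moved by over 1.5 times as follows, and the cause was not tested. Counts over all genes tested moved too. At 7 against 4 dpa the 372 genes called became 142 on deposited TPM and 251 with upper-quartile scaling. They became 116 in a fit of the compared times and 210 with library set. At 7 against 4 dpa the 4 calls became 1 on deposited TPM, 2 with upper-quartile scaling, 2 in a fit of the compared times, 2 with library set as covariate, 1 without the libraries above 60% rRNA and 2 to 10 without 1 library. At 14 against 7 dpa the 1 call became 0 on deposited TPM, with upper-quartile scaling, with a pseudocount of 0.1 and without the libraries above 60% rRNA, 2 with library set and 0 to 2 without 1 library. The main call was a fall, while the 2 calls with library set were rises. The 1 call in a fit of the compared times and the 1 call without 7 dpa replicate 3 were also rises. Over all genes the 354 calls of this comparison became 68 on deposited TPM, 252 with upper-quartile scaling and 46 with library set. At 21 against 14 dpa the 2 calls became 1 on deposited TPM, 4 in a fit of the compared times and 2 to 4 without 1 library. Over all genes 144 calls became 80 on deposited TPM and 167 in a fit of the compared times. At 21 against 4 dpa the 25 calls became 16 on deposited TPM, 7 with library set and 15 to 27 without 1 library. Over all genes 2249 calls became 993 on deposited TPM and 260 with library set. At 14 against 4 dpa the 16 calls became 3 on deposited TPM, 3 with library set and 9 to 20 without 1 library. Over all genes 1735 calls became 482 on deposited TPM and 198 with library set. The F test's 20 became 8 on deposited TPM, 13 with upper-quartile scaling, 8 with library set and 13 to 25 without 1 library. Its 2033 calls over all genes became 696 on deposited TPM, 1846 with upper-quartile scaling and 386 with library set.

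For list genes outside the members, the 137 calls at 4 dpa became 82 on deposited TPM, 78 with a minimum mean of 5 and 102 to 147 without 1 library. The 49 at 7 dpa became 4 on deposited TPM, 32 with the minimum, 5 in a fit of the compared times, 22 with library set, 8 without the libraries above 60% rRNA and 22 to 76 without 1 library. The 65 at 14 dpa became 14, 38 and 0 on deposited TPM, in a fit of the compared times and with library set, and 19 to 73 without 1 library. The 95 at 21 dpa became 16 on deposited TPM, 62 with the minimum, 53 in a fit of the compared times, 2 with library set and 59 to 110 without 1 library. The stricter minimum tests fewer genes. With library set the calls over all genes also dropped, from 1037 to 3 at 14 dpa and from 1392 to 31 at 21 dpa.

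Named members' tested differences kept direction and call in 270 other alternatives and lost the call in 60, and without 1 library they kept it in 382 fits and lost it in 68, with no change of sign. On deposited TPM the median gene shifted by -0.34 at 21 against 4 dpa and by -0.40 at 21 against 14 dpa.

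Replicate numbers did not pair the libraries. Deviations of same-numbered libraries correlated from -0.63 to 0.65, with a median of -0.02 and 12 of 30 pairs over 0.1. For libraries of other numbers the range was -0.72 to 0.82, with a median of 0.04 and 26 of 60 pairs over 0.1. The fit with a replicate block called 2 members at 7 against 4 dpa and 0 at 14 against 7 dpa.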

Other observations

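Over the members, libraries of one time did not take their order evenly. The order was not counted over all genes, so whether it is particular to the members was not tested. Among the 3 libraries of 4 dpa, replicate 3 was the lowest for 54 of the 100 members, and among those of 7 dpa, replicate 3 was the lowest for 58 and replicate 2, the library of set B, the highest for 56. At 0 dpa replicate 1 was the lowest for 51 members and replicate 2 the highest for 56. At 14 dpa replicate 2 was the highest for 55 and replicate 3 the lowest for 53. No replicate of 21 dpa was the lowest for more than 43. The proteasome subunit gene psmb7 had 63.9, 81.7 and 39.1 scaled TPM at 4 dpa, against 26.9, 13.2 and 9.96 at 0 dpa, and only 6 of its 12 later libraries lay above 0 dpa replicate 1.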
